A study of Mus musculus with 24 samples.

Results

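Cholesterol is built from acetyl-CoA by a series of enzymes. Described here, in lung epithelial cells grown with nylon fibers, are 28 genes of that pathway, its branch to geranylgeranyl diphosphate and its sterol-sensing control. They are 20 enzymes, 7 proteins that sense sterols or process the transcription factor SREBP2, and 1 sterol carrier, 28 of the 14557 gene symbols with a listed transcript. Members were taken by symbol, and for each the transcript whose counts averaged highest across the 12 epithelial libraries stands for the gene. All 28 had a row and passed the filter on low counts. The study grew EpCAM+ primary cells from the lungs of female, wild-type C57BL6 mice in Matrigel with CCL206, a lung fibroblast line derived from a male ddY mouse, and asked what nylon 6,6 fibers of 12 by 31 µm do to such organoids. Wells of 6-well plates held 0 (untreated control), 12000 or 30000 fibers for 7 days, after which beads against EpCAM separated an epithelial from a fibroblast fraction. Each of the 3 epithelial groups has 4 libraries, 1 from each of 4 mice, and all groups share the Matrigel, the serum-containing medium and the same fibroblast line. The 12 fibroblast libraries of the series were not used, since their values could not be tied to gene names.

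The pathway joins acetyl-CoA units into mevalonate, turns mevalonate into isoprenoid diphosphates, joins these into squalene, and closes squalene into lanosterol, which a further set of enzymes trims and reduces to cholesterol. Most of its genes are switched on by SREBP2, a membrane-bound factor that SCAP escorts to the Golgi when sterols are low, where the site-1 and site-2 proteases release it. INSIG proteins hold SCAP back when sterols are plentiful. In the lung, alveolar type 2 cells use cholesterol as a component of surfactant.

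Libraries of the controls held 21222034 to 28232472 transcript counts in total, those with 12000 fibers 20103389 to 31119155, and those with 30000 fibers only 6767842 to 9234052. Mitochondrial transcripts took 5.20% to 7.77%, 5.33% to 6.91% and 14.3% to 16.3% of the representative counts in the same order. The 14 pan-epithelial markers, Epcam among them, all had counts, and their summed level was 8839 to 10329 CPM (counts per 1000000 counts, scaled by TMM, the trimmed mean of M values) in controls, 8545 to 9457 CPM at 12000 fibers and 4487 to 5259 CPM at 30000 fibers. Of the 14, 9 were lower and 3 higher at 12000 fibers, and 12 lower and 1 higher at 30000. Fibroblast genes were present too, with a summed level of 8794 to 13830, 15997 to 17435 and 15253 to 18288 CPM in the same order, and 18 of 20 tested were higher at each fiber number than in controls. Proliferation genes summed to 1190 to 1647, 774 to 810 and 1066 to 1307 CPM, with 16 of 20 lower at 12000 fibers and 8 lower and 4 higher at 30000. Basal markers summed to 2790 to 4414, 996 to 1115 and 514 to 575 CPM, with 10 of 11 lower at 12000 fibers and 11 of 11 at 30000. Alveolar type 2 markers summed to 2066 to 4113, 3931 to 6764 and 4547 to 6632 CPM, with 2 of 10 higher and 0 lower at 12000 fibers and 5 higher and 2 lower at 30000. Of 9 club and secretory markers 8 were lower at each fiber number, of 10 ciliated ones 9 and 8, and of 6 alveolar type 1 markers 3 at 12000 and 2 at 30000. Against the direction of its list, the club marker Scgb1a1 was higher at 30000 fibers (4.15 log2), with 210 CPM against 11.5 CPM in controls. Tuba1a of the ciliated list was higher at 12000 (0.82) and at 30000 (2.85), and Icam1 of the basal list at 12000 (0.44). Fbln1 of the fibroblast list was lower at 12000 (-3.28) and at 30000 (-5.77). Of all tested genes 19.3% were lower and 18.7% higher at 12000 fibers, and 33.4% and 32.2% at 30000. The alveolar type 1 count at 30000 and the count of higher alveolar type 2 markers at 12000 are near these shares. Of 7 immune and 6 endothelial or mesothelial markers, 3 each had a row, and no marker with a row was at 0 in all libraries. Csf1r was higher at 12000 fibers (0.56 log2) and Cd68 (0.85) and Lyz2 (1.67) at 30000, while Msln was lower at 12000 (-0.56) and at 30000 (-1.26) and Kdr at 30000 (-1.05). The part of depth, mitochondrial share and cell makeup in the results below was not tested, and at 30000 fibers depth and mitochondrial share cannot be told apart from the fiber number, since all 4 libraries share them.

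Promoters of 5 members, namely the genes with the largest falls at 12000 fibers in each of the first 3 segments, Srebf2 itself and the SREBP2 target Insig1, show the letters around the RefSeq starts of genes that the values below compare. RefSeq (build GRCm38.p6) gave promoter windows for 24 of the 28, and not for Fdps, Fdft1, Sqle and Stard4. The 250 bases before the RefSeq start are printed 5′ to 3′ on the gene's strand, which is the plus strand for all 5, at chr13:119690101-119690350 for Hmgcs1, chr13:8885356-8885605 for Idi1, chr10:76531355-76531604 for Lss, chr15:82147019-82147268 for Srebf2 and chr5:28071162-28071411 for Insig1. Capitals mark CACCCCAC (the core of the classical sterol regulatory element), CCAAT (the NF-Y box), GGGCGG (the Sp1 box) and CACGTG (an E-box) on either strand, so that CCAAT also appears as ATTGG and GGGCGG as CCGCCC. The counted transcript starts upstream of the RefSeq start in 3 of the 5, so that the last 105 bases of the Idi1 window, with all 3 of its marked stretches, the last 88 of the Srebf2 window, with 3 of its 5, and the last 49 of the Insig1 window, with 0 of its 5, lie within the counted transcript. The Hmgcs1 and Lss windows end before it.
Hmgcs1: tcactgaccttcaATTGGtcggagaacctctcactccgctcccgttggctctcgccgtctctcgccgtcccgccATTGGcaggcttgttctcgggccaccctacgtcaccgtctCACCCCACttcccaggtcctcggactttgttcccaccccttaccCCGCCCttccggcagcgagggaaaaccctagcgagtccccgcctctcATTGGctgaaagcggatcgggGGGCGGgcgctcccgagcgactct
Idi1: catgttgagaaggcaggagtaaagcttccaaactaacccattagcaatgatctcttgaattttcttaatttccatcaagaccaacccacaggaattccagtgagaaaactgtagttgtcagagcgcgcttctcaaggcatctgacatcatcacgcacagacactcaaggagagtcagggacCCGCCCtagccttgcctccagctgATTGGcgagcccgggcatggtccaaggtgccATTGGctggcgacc
Lss: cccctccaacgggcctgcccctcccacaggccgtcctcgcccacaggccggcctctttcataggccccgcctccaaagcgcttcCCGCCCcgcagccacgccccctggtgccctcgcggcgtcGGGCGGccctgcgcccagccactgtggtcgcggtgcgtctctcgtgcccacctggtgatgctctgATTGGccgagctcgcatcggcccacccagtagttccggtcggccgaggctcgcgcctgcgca
Srebf2: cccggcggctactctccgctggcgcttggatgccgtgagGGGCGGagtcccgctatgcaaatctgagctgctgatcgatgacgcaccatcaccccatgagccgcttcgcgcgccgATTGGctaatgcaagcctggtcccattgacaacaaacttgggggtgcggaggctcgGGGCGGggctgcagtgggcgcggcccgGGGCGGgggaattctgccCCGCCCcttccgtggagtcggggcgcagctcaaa
Insig1: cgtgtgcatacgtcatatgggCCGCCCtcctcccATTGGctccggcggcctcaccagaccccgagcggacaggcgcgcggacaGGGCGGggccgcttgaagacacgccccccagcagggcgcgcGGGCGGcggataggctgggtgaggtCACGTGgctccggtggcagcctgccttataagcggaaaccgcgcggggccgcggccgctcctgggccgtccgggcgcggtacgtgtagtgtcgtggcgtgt

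The 24 members have 32 windows, and a gene is counted once if any of its windows holds the letters. Among the 24, 20 (83.3%) held CCAAT within 250 bases before a start, against 40.5% of the 10521 tested genes with a window. GGGCGG was in 21 of the 24 (87.5%), against 62.9% of tested genes, and CACGTG in 6 (25%), against 9.69%. CACCCCAC was found in 2 of the 24 members, Acat2 and Hmgcs1 (8.33%), against 3.34% of tested genes. A looser form, TCACNCCAC, which overlaps the first one in Hmgcs1, was found in Hmgcs1 alone, against 1.18% of tested genes. These are matches of letters in a short window, with no test, and neither a match nor its absence says whether a factor binds.

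At 12000 fibers most enzymes of the pathway were lower, in every segment. The call used throughout is an adjusted p under 0.05 in edgeR's quasi-likelihood test, with Benjamini-Hochberg adjustment over 13759 genes, and by it 20 of the 28 members were lower and none higher at 12000 fibers than in controls, where 19.3% of all tested genes were lower and 18.7% higher. At an unadjusted p under 0.05 in edgeR 1 member, Mbtps2, was higher, and DESeq2 called 0 higher. Of the 20 enzymes, 16 were lower. The 4 not called were the kinases Mvk and Pmvk, Ggps1 and Hsd17b7. The members' median log2 fold change (12000 fibers over control) was -0.43, against -0.0026 over all tested genes. In 19 members all 4 libraries at 12000 fibers lay below all 4 controls, as did 18.7% of tested genes. The members together summed to 1860.2 to 2068 CPM in controls, 1402 to 1564 CPM at 12000 fibers and 1392 to 1572 CPM at 30000 fibers. With this TMM scaling the summed levels at both fiber numbers lay below every control and overlapped each other. As a share of representative counts, without TMM, the members took 0.198% to 0.218%, 0.146% to 0.163% and 0.126% to 0.140% in the same order. By that share every library at 30000 fibers lay below every library at 12000. In bulk libraries fewer cells of a type and less RNA per cell cannot be told apart.

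At 30000 fibers the direction depended on the gene. There 14 members were lower and 4 higher than in controls, against 33.4% of tested genes lower and 32.2% higher, and the members' median log2 fold change was -0.30 against -0.026 over all genes. In 14 members all libraries at 30000 fibers lay below all controls and in 4 above them, as did 29.4% and 28.7% of tested genes. Tested genes were also split into 5 classes by transcript length. The shortest class (57 to 1803 bases) had a median of 0.53 at 30000 fibers and 0.032 at 12000. The longest (5152 to 123179 bases) had -0.23 and -0.016. Fdps lies in the shortest class with Pmvk, Mvd, Tm7sf2 and Ebp, and Lss and Mbtps1 in the longest. The part of length in the members' values was not tested. With library totals alone as the scaling, 33.7% of all called genes were higher at 30000 fibers, against 49.1% with TMM, and 20 members were lower and 2 higher. That scaling also called Pmvk (-0.51; edgeR adjusted p = 0.00196), Ggps1 (-0.29; edgeR adjusted p = 0.0341), Ebp (-0.39; edgeR adjusted p = 0.0159), Scap (-0.27; edgeR adjusted p = 0.00375) and Erlin1 (-0.43; edgeR adjusted p = 0.000522) lower at 30000, and it moved the median of all genes there to -0.25. Library totals alone also called Msmo1 lower at 30000 (-0.21, edgeR adjusted p = 0.0149). Both comparisons use the same 4 controls. Of the 28, 13 were lower at both fiber numbers (Hmgcs1, Mvd, Idi1, Sqle, Lss, Cyp51, Tm7sf2, Lbr, Sc5d, Dhcr7, Srebf2, Mbtps1 and Stard4). Acat2 and Fdps were lower at 12000 and higher at 30000, and 5 (Fdft1, Msmo1, Nsdhl, Ebp and Scap) were lower at 12000 and not called at 30000. Insig2 and Mbtps2 were not called at 12000 and were higher at 30000, and Insig1 was not called at 12000 and was lower at 30000. Mvk, Pmvk, Ggps1, Hsd17b7 and Erlin1 were called at neither. The shares of all tested genes with these joint patterns were not computed, so the counts describe the members alone.

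**Figure D1:**
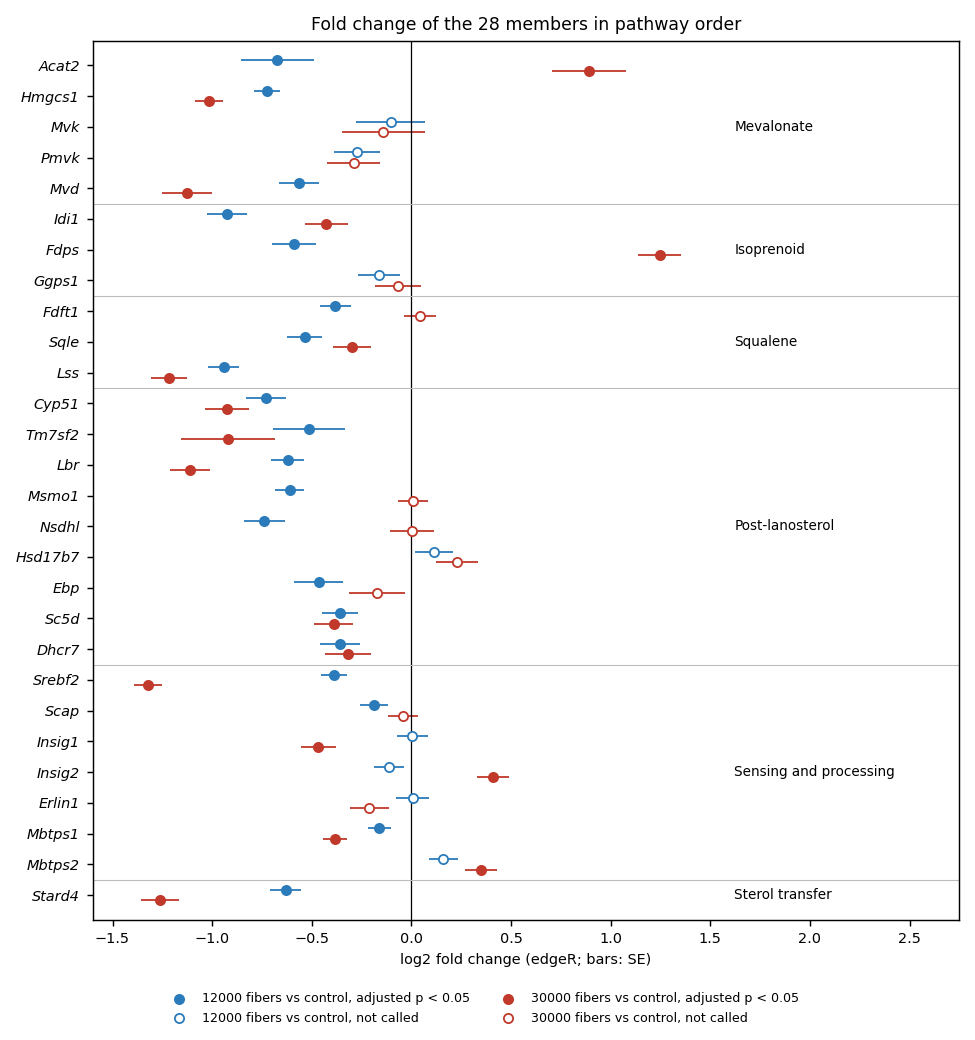
Fold change of each member in pathway order, from Acat2 at the top to Stard4 at the bottom. The horizontal axis is the log2 fold change over control with its standard error, blue for 12000 fibers and red for 30000 fibers (4 libraries a group), and filled points are called. Blue points lie left of 0 along the enzymes from Acat2 to Dhcr7 except for Hsd17b7, while the red points of Acat2 (0.89) and Fdps (1.24) lie far to the right.

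The mevalonate segment opens with Acat2, the cytosolic thiolase that joins 2 acetyl-CoA units, and Hmgcs1, the synthase that adds the next acetyl-CoA. Hmgcs1 held 217, 246, 221 and 231 CPM in the 4 control libraries, 125, 153, 132 and 144 CPM at 12000 fibers and 115, 114, 111 and 114 CPM at 30000 fibers. Every library at 12000 fibers was below every control, and every library at 30000 fibers was lower still, within a span of a few CPM. The log2 fold change was -0.73 ± 0.066 (SE; edgeR adjusted p = 1.18e-07) at 12000 fibers and -1.01 ± 0.070 (edgeR adjusted p = 1.77e-10) at 30000, and the level fell by 39.5% at 12000 and fell by 50.5% at 30000. Its transcript lies at chr13:119690464-119708260, plus strand (mm10), and 16.1% of its length overlaps exons of an antisense gene, Gm48342. Use of strand in the counting was not given in the sources used here, so reads of that stretch are uncertain.

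Acat2 held 17.9, 24.4, 20.98 and 17.3 CPM in the 4 control libraries, 13.9, 14.5, 12.6 and 9.38 CPM at 12000 fibers and 34.1, 52.9, 36.5 and 26.4 CPM at 30000 fibers. All libraries at 12000 fibers lay below all controls, and all at 30000 lay above them, with mouse 2 the highest in each of the 3 groups. The change was -0.67 ± 0.18 on the log2 scale (SE; edgeR adjusted p = 0.00903) at 12000 fibers and 0.89 ± 0.18 (edgeR adjusted p = 0.00054) at 30000. Acat2 counts are uncertain because 1477 bases of its transcript, 65.6% of it, match Acat3 at 97.7% identity. A stretch of 445 bases, 19.8% of it, matches Tcp1 at 98.7% identity. Tcp1 is listed in the counts and Acat3 is not.

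The kinases that charge mevalonate, Mvk and Pmvk, did not pass the test. Mvk averaged 11.2 ± 2.42 CPM in controls, 10.5 ± 1.26 CPM at 12000 fibers and 10.3 ± 3.53 CPM at 30000 (SD, n = 4 each), the least of all members per kilobase in controls, and its representative transcript is annotated as a retained intron. Pmvk averaged 25.4 ± 2.79, 20.98 ± 3.26 and 20.8 ± 2.86 CPM in the same order. Its log2 fold change was -0.27 ± 0.12 (edgeR adjusted p = 0.068) at 12000 fibers and -0.29 ± 0.13 (edgeR adjusted p = 0.0637) at 30000, and with the mouse as a block in the fit both passed as lower (edgeR adjusted p = 0.0352 and 0.0351). Without control mouse 1 or without mouse 2 of the 12000-fiber group the first also passed (edgeR adjusted p = 0.0384 and 0.026), as did the second without control mouse 1, mouse 3 at 12000 fibers or mouse 2 at 30000 (edgeR adjusted p = 0.0338, 0.0496 and 0.0244). Mvd, the decarboxylase that makes isopentenyl diphosphate, stepped down with fiber number. Mvd held 31.8, 30.9, 27.0 and 28.03 CPM in the 4 control libraries, 19.9, 20.8, 18.5 and 20.5 CPM at 12000 fibers and 16.8, 10.9, 14.7 and 11.7 CPM at 30000 fibers. No library of one group reached the range of the group with fewer fibers. The log2 fold change was -0.56 ± 0.10 (edgeR adjusted p = 0.000192) at 12000 fibers, -1.12 ± 0.13 (edgeR adjusted p = 1.86e-07) at 30000, and -0.56 ± 0.13 (edgeR adjusted p = 0.00118) for 30000 over 12000.

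In the isoprenoid segment neighbouring enzymes differed in direction at 30000 fibers. Idi1, the isomerase that makes the starter unit of the chain, fell at 12000 fibers and lay between that level and the controls at 30000. Idi1 held 75.7, 83.3, 67.4 and 72.3 CPM in the 4 control libraries, 33.3, 45.3, 38.5 and 41.3 CPM at 12000 fibers and 55.2, 66.7, 54.2 and 46.8 CPM at 30000 fibers. The 3 ranges did not overlap, though the highest library at 30000 was within 1 CPM of the lowest control. Its log2 fold change was -0.92 ± 0.10 (edgeR adjusted p = 8.56e-07) at 12000 fibers, where its level fell by 47.3%, and -0.43 ± 0.11 (edgeR adjusted p = 0.00171) at 30000. For 30000 over 12000 the log2 difference was 0.50 ± 0.11 (edgeR adjusted p = 0.000901). The transcript lies at chr13:8885501-8892451, plus strand (mm10), and 684 bases of it, 22.6%, are identical to a gene model named Gm13502.

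Fdps, which couples the units into farnesyl diphosphate, had the largest rise of all members at 30000 fibers. Fdps held 27.5, 27.9, 21.9 and 22.9 CPM in the 4 control libraries, 17.8, 19.2, 15.5 and 14.1 CPM at 12000 fibers and 54.1, 65.6, 59.8 and 58.5 CPM at 30000 fibers. All 4 libraries at 12000 fibers were below all controls, and all 4 at 30000 stood above them by a wide gap. The level at 30000 fibers was 2.37-fold that in controls (log2 1.24 ± 0.11; edgeR adjusted p = 5.29e-09), and at 12000 fibers the log2 change was -0.59 ± 0.11 (edgeR adjusted p = 0.0003). Fdps counts are uncertain: 76.8% of its transcript matches Gm3571 at 98.9% identity, and a second gene model, Gm43738, covers 81.3% of it on the same strand. Ggps1, which makes the longer geranylgeranyl diphosphate for protein prenylation, averaged 40.8 ± 3.20 CPM in controls, 36.5 ± 3.89 CPM at 12000 fibers and 39.1 ± 7.39 CPM at 30000 (SD, n = 4 each), with overlapping ranges and no call at either fiber number.

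All 3 squalene enzymes were lower at 12000 fibers, where 19.3% of all tested genes were lower. Fdft1, squalene synthase, commits farnesyl units to sterols. Fdft1 held 68.8, 79.0, 70.0 and 68.3 CPM in the 4 control libraries, 55.0, 56.1, 51.5 and 57.2 CPM at 12000 fibers and 65.0, 84.7, 70.9 and 74.2 CPM at 30000 fibers. The libraries at 12000 fibers were below the other groups, and those at 30000 overlapped the controls. The log2 fold change was -0.38 ± 0.075 at 12000 fibers (edgeR adjusted p = 0.000507), 0.044 ± 0.081 at 30000 (edgeR adjusted p = 0.65), and 0.42 ± 0.082 for 30000 over 12000 (edgeR adjusted p = 0.000206). Fdft1 counts are uncertain, since 33.8% of its transcript matches Gm6781 at 97.4% identity and exons of Ctsb on the other strand overlap 20.9% of it.

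Sqle, squalene epoxidase, averaged 79.7 ± 5.13 CPM in controls, 55.0 ± 5.41 CPM at 12000 fibers and 65.0 ± 10.3 CPM at 30000 (SD, n = 4 each). The log2 fold change was -0.54 ± 0.088 (edgeR adjusted p = 8.69e-05) at 12000 fibers, where the groups did not overlap, and -0.30 ± 0.10 (edgeR adjusted p = 0.00986) at 30000, where mouse 2 reached into the control range and the call was lost without mouse 3 of that group (-0.25; edgeR adjusted p = 0.0504). Lss, the cyclase that closes the sterol rings, had the largest fall of all members at 12000 fibers. Lss held 70.0, 71.7, 64.2 and 65.7 CPM in the 4 control libraries, 34.0, 39.6, 35.3 and 32.8 CPM at 12000 fibers and 27.8, 33.5, 28.8 and 26.7 CPM at 30000 fibers. Both fiber groups lay far below the controls, and the 30000-fiber group overlapped the 12000-fiber group only through mouse 2. Lss fell by 47.9% at 12000 fibers (log2 -0.94 ± 0.078; edgeR adjusted p = 4.79e-08) and by 57.0% at 30000 (log2 -1.22 ± 0.091; edgeR adjusted p = 5.63e-10). The row counted for Lss is a retained-intron transcript at chr10:76531612-76557138, plus strand (mm10). All 7 of its listed transcripts were lower than in controls at both fiber numbers, though overlapping transcripts can hold the same reads.

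**Figure D2:**
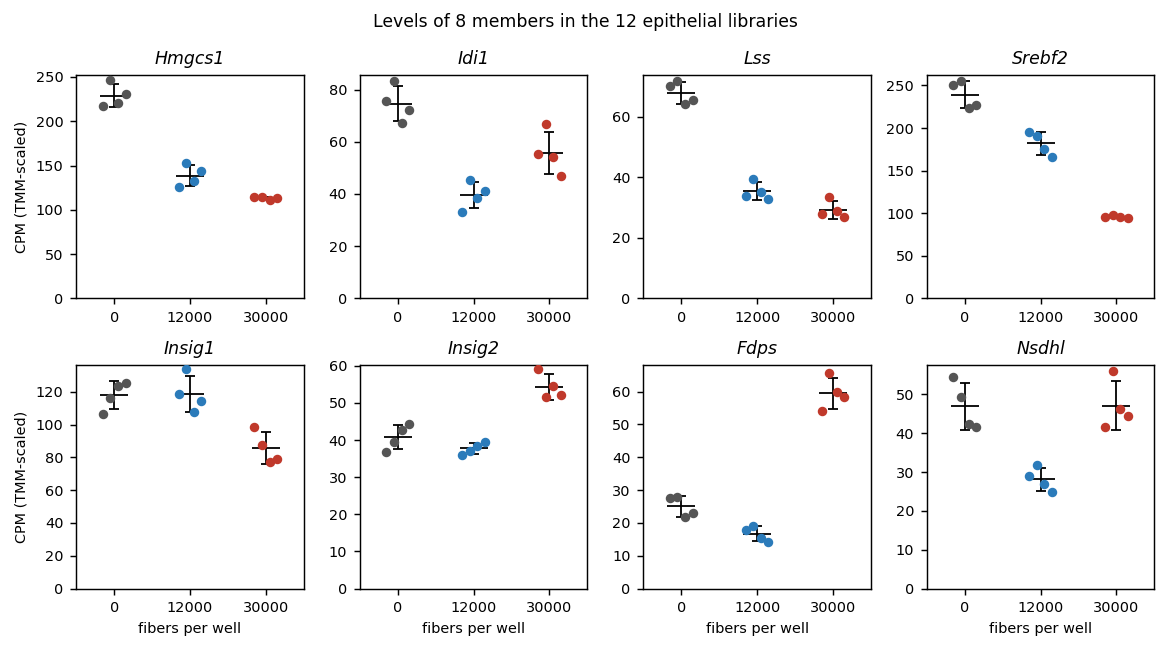
Level of 8 members in each epithelial library, in CPM scaled by TMM, against fibers per well. Each point is 1 mouse and the black marks are the mean and SD (n = 4). Hmgcs1, Lss and Srebf2 step down from 0 to 30000 fibers, Idi1, Fdps and Nsdhl are lowest at 12000, and Insig1 differs at 30000 alone.

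Of the 9 enzymes after lanosterol, 8 were lower at 12000 fibers and 5 at 30000, against 19.3% and 33.4% of all tested genes. Cyp51, the demethylase that acts on lanosterol first, was among those lower in both. Cyp51 held 151, 156, 120.4 and 121 CPM in the 4 control libraries, 80.8, 97.3, 75.7 and 77.2 CPM at 12000 fibers and 74.4, 83.3, 66.5 and 64.8 CPM at 30000 fibers. Neither fiber group reached the controls, and the fiber groups overlapped each other. The log2 fold change was -0.73 ± 0.10 (edgeR adjusted p = 2.84e-05) at 12000 and -0.93 ± 0.11 (edgeR adjusted p = 1.34e-06) at 30000. For 30000 over 12000 the change of -0.20 ± 0.11 was not called (edgeR adjusted p = 0.148), and it was called with the mouse as a block (edgeR adjusted p = 0.0216). It was also called with library totals alone (-0.41; edgeR adjusted p = 0.00372) and with summed transcripts (-0.30; edgeR adjusted p = 0.0434).

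Lbr and Tm7sf2 carry the same sterol reductase activity, and Lbr is also a lamin-binding protein of the nuclear envelope. Lbr held 56.4, 63.3, 50.2 and 54.7 CPM in the 4 control libraries, 35.3, 38.2, 34.7 and 38.0 CPM at 12000 fibers and 21.9, 28.9, 27.4 and 25.4 CPM at 30000 fibers. The 3 groups were separate, highest in controls and lowest at 30000 fibers. Lbr changed by -0.62 ± 0.083 on the log2 scale at 12000 fibers (edgeR adjusted p = 9.11e-06) and by -1.11 ± 0.10 at 30000 (edgeR adjusted p = 8.22e-09). Tm7sf2 was the scarcer of the pair, with 6.13 CPM per kilobase of transcript in controls against 15.997 for Lbr. It averaged 9.02 ± 1.74 CPM in controls, 6.22 ± 1.29 CPM at 12000 fibers and 4.86 ± 1.20 CPM at 30000, with a log2 fold change of -0.51 ± 0.18 (edgeR adjusted p = 0.0305) and -0.92 ± 0.24 (edgeR adjusted p = 0.00199). At 12000 fibers its groups overlapped, and the call was lost without control mouse 1 or 2 or without mouse 2, 3 or 4 at 12000 fibers (edgeR adjusted p = 0.0561 to 0.11).

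Msmo1, Nsdhl and Hsd17b7 act in turn to remove a pair of methyl groups, as oxidase, dehydrogenase and ketoreductase. Nsdhl held 54.4, 49.3, 42.5 and 41.7 CPM in the 4 control libraries, 28.9, 31.7, 27.1 and 24.8 CPM at 12000 fibers and 41.5, 56.1, 46.2 and 44.4 CPM at 30000 fibers. The libraries at 12000 fibers lay below all others, and those at 30000 covered the control range. Nsdhl fell by 40.1% at 12000 fibers (log2 -0.74 ± 0.10; edgeR adjusted p = 1.37e-05), and its log2 difference from controls at 30000 was 0.0035 ± 0.11 (edgeR adjusted p = 0.98). Msmo1 showed 88.4, 87.1, 84.6 and 86.5 CPM in the 4 control libraries, 58.2, 61.6, 53.7 and 53.3 CPM at 12000 fibers and 86.6, 101, 81.5 and 80.2 CPM at 30000 fibers. Again the libraries at 12000 fibers stood below both other groups, and mouse 2 at 30000 was the highest library of all. Msmo1 had a log2 fold change of -0.61 ± 0.072 (edgeR adjusted p = 1.98e-06) at 12000 fibers and 0.0085 ± 0.076 (edgeR adjusted p = 0.927) at 30000. Hsd17b7, the last of the 3, was the one enzyme with a positive value at 12000 fibers, 0.11 ± 0.10 (edgeR adjusted p = 0.378). At 30000 its change of 0.23 ± 0.10 was not called (edgeR adjusted p = 0.0613) and was called as higher with the mouse as a block (edgeR adjusted p = 0.0195), without control mouse 2 (edgeR adjusted p = 0.007) and without mouse 2 at 12000 fibers (edgeR adjusted p = 0.0462). Without the low-count filter it was also called as higher (edgeR adjusted p = 0.0488).

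Ebp, the isomerase that shifts a ring double bond, averaged 25.4 ± 4.99 CPM in controls, 18.4 ± 0.863 CPM at 12000 fibers and 22.6 ± 3.13 CPM at 30000 (SD, n = 4 each). It was lower at 12000 fibers (-0.46 ± 0.12 log2; edgeR adjusted p = 0.00562) and not called at 30000 (-0.17 ± 0.14; edgeR adjusted p = 0.284). For 30000 over 12000 its change of 0.29 ± 0.14 was not called (edgeR adjusted p = 0.0955), and it was called with the mouse as a block (edgeR adjusted p = 0.0422) and without mouse 4 at 30000 fibers (edgeR adjusted p = 0.0463). With the fit limited to the 2 groups it was also called (edgeR adjusted p = 0.0345). Sc5d and Dhcr7, the desaturase and the reductase near the end of the pathway, were lower at both fiber numbers. Sc5d had log2 fold changes of -0.36 ± 0.089 at 12000 fibers (edgeR adjusted p = 0.00339) and -0.39 ± 0.10 at 30000 (edgeR adjusted p = 0.00166). Those of Dhcr7 were -0.36 ± 0.10 (edgeR adjusted p = 0.00751) and -0.32 ± 0.12 (edgeR adjusted p = 0.0214). In both genes neither fiber group overlapped the controls, and the Dhcr7 call at 30000 was lost without control mouse 2 or without mouse 3 or 4 at 30000 (edgeR adjusted p = 0.0537 to 0.0744).

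**Figure D3:**
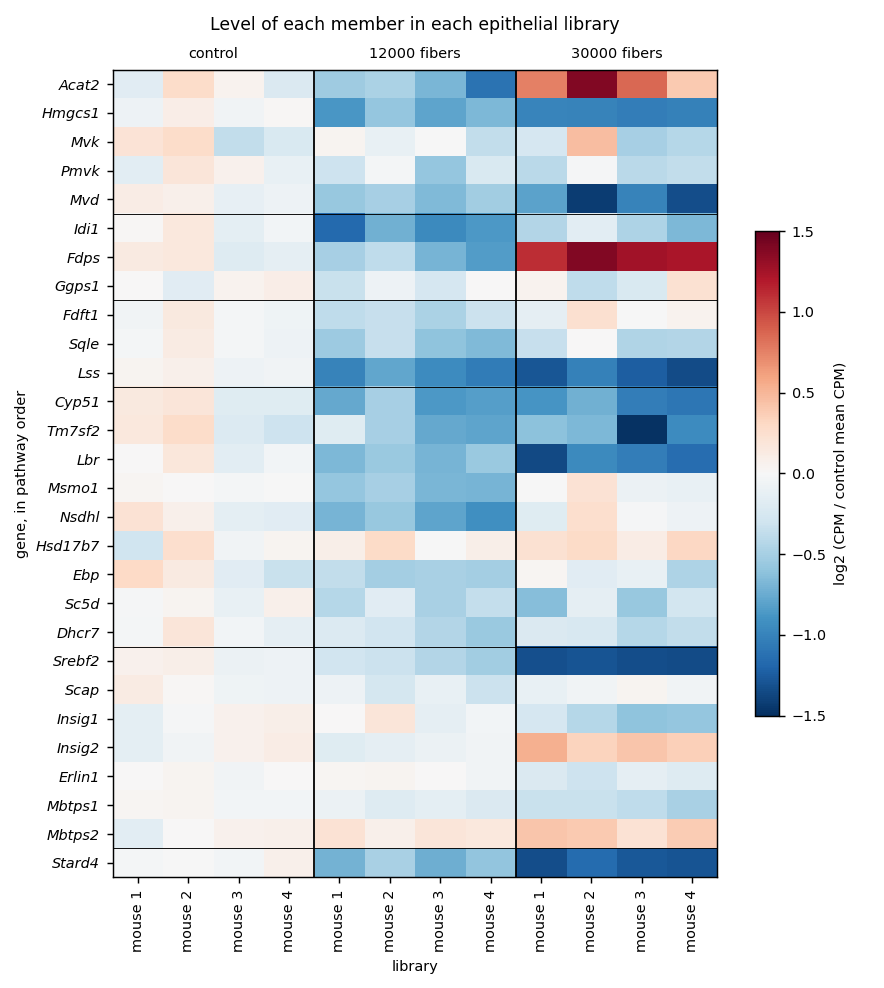
Level of each member in each epithelial library as log2 of its CPM over the control mean CPM. Rows follow the pathway, columns are the 4 mice of each group from 0 to 30000 fibers, blue is below and red above the control mean. The block at 12000 fibers is blue for most enzymes in all 4 mice, and at 30000 fibers Acat2 and Fdps are red beside blue neighbours.

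The 7 sensing and processing genes had a median log2 fold change of -0.11 at 12000 fibers, against -0.55 over the 20 enzymes, a description with no test of the difference. Among the 7, Srebf2, which encodes SREBP2, had the largest change. Srebf2 held 250.02, 255, 224 and 227 CPM in the 4 control libraries, 196, 191, 176 and 166 CPM at 12000 fibers and 95.6, 97.4, 95.1 and 94.2 CPM at 30000 fibers. The 3 groups were separate, and the 4 libraries at 30000 fibers differed by only a few CPM. Srebf2 fell by 23.7% at 12000 fibers (log2 -0.39 ± 0.065; edgeR adjusted p = 9.23e-05) and by 60.0% at 30000 (log2 -1.32 ± 0.071; edgeR adjusted p = 3.41e-12), the largest fall of any member there. For 30000 over 12000 its log2 difference was -0.93 ± 0.071 (edgeR adjusted p = 1.12e-09). It lies at chr15:82147181-82205379, plus strand (mm10).

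Insig1, the SCAP-retaining protein that SREBP2 itself induces, was not called at 12000 fibers and fell at 30000. Insig1 held 107, 116, 123 and 126 CPM in the 4 control libraries, 118, 134, 108 and 114 CPM at 12000 fibers and 98.7, 87.5, 77.4 and 79.2 CPM at 30000 fibers. Libraries at 12000 fibers and controls overlapped, and those at 30000 lay below both. Its log2 fold change was 0.0053 ± 0.079 (edgeR adjusted p = 0.968) at 12000 fibers and -0.47 ± 0.086 (edgeR adjusted p = 8.46e-05) at 30000. Insig2, the relative that is less dependent on SREBP2, rose at 30000. Insig2 held 36.9, 39.5, 42.6 and 44.2 CPM in the 4 control libraries, 36.0, 37.2, 38.5 and 39.4 CPM at 12000 fibers and 59.2, 51.5, 54.5 and 52.1 CPM at 30000 fibers. At 12000 fibers it overlapped the controls, and at 30000 all libraries stood above them. The log2 fold change was -0.11 ± 0.076 (edgeR adjusted p = 0.259) at 12000 and 0.41 ± 0.082 (edgeR adjusted p = 0.000196) at 30000, where the direction turned to -0.30 (edgeR adjusted p = 0.00536) when all 14 listed transcripts were summed, and where library totals alone as the scaling gave 0.19 (edgeR adjusted p = 0.0525).

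Scap, the escort of SREBP2, averaged 84.1 ± 5.29 CPM in controls, 73.6 ± 6.04 CPM at 12000 fibers and 81.4 ± 3.59 CPM at 30000 (SD, n = 4 each). Its small fall at 12000 fibers, -0.19 ± 0.069 (edgeR adjusted p = 0.0368), was lost with DESeq2 (adjusted p = 0.0565), without control mouse 1 or 2 or mouse 2 or 4 at 12000 fibers (edgeR adjusted p = 0.0666 to 0.131), and without the 30000-fiber libraries in the fit (edgeR adjusted p = 0.0626), and with summed transcripts (edgeR adjusted p = 0.238). Mbtps1, the site-1 protease, averaged 166 ± 5.18, 148 ± 6.02 and 127 ± 5.89 CPM in the same order, from a retained-intron transcript. Its log2 fold change was -0.16 ± 0.057 at 12000 fibers (edgeR adjusted p = 0.0312), a call lost without control mouse 1 or 2 or without mouse 2, 3 or 4 at 12000 fibers (edgeR adjusted p = 0.0616 to 0.094), and -0.38 ± 0.060 at 30000 (edgeR adjusted p = 1.5e-05). Mbtps2, the site-2 protease, had values above all controls in all libraries at both fiber numbers, as did 17.6% of tested genes at 12000 and 28.7% at 30000. It was not called at 12000 (0.16 ± 0.074; edgeR adjusted p = 0.0966) and higher at 30000 (0.35 ± 0.082; edgeR adjusted p = 0.000892), though not with library totals alone as the scaling (0.13; edgeR adjusted p = 0.18). Erlin1, a membrane protein that binds cholesterol and restrains SREBP2 release, averaged 23.2 ± 0.629, 23.4 ± 0.677 and 20.1 ± 1.04 CPM and was not called, with a log2 fold change of -0.21 ± 0.10 (edgeR adjusted p = 0.0636) at 30000. There all 4 libraries lay below all controls, and it was called lower with upper-quartile factors (-0.22; edgeR adjusted p = 0.0489) and with library totals alone.

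Stard4 carries sterol between membranes and is induced by SREBP2. Stard4 held 41.7, 42.5, 41.2 and 44.7 CPM in the 4 control libraries, 26.1, 30.2, 25.5 and 28.1 CPM at 12000 fibers and 16.8, 19.0, 17.7 and 17.4 CPM at 30000 fibers. The 3 groups were separate and tight. Stard4 fell by 35.4% at 12000 fibers (log2 -0.63 ± 0.078; edgeR adjusted p = 3.68e-06) and by 58.3% at 30000 (log2 -1.26 ± 0.10; edgeR adjusted p = 8.39e-10). It stands in a group of 7 members, with Hmgcs1, Mvd, Lss, Lbr, Srebf2 and Mbtps1, that were lower at both fiber numbers than in controls and also lower at 30000 than at 12000. How many of all tested genes had this pattern was not computed. The call for 30000 over 12000 was lost for Lss without mouse 2 at 12000 or mouse 4 at 30000 fibers (edgeR adjusted p = 0.0788 and 0.0666), and for Mbtps1 with summed transcripts (-0.10; edgeR adjusted p = 0.128).

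Per kilobase of transcript, Hmgcs1 had the highest mean level in controls, 66.1 CPM per kilobase, followed by Srebf2 (47.0), Insig1 (43.8), Msmo1 (42.4) and Cyp51 (34.9). At 12000 fibers Insig1 came first with 43.9 CPM per kilobase and Hmgcs1 second with 40.0. At 30000 fibers Fdps (43.0) and Msmo1 (42.7) led, and Hmgcs1 had 32.7 CPM per kilobase. Fdps lies in the shortest length class, with a median of 0.53 at 30000 fibers over tested genes, and its counts are uncertain. The part of transcript length and near copies in this order was not tested.

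Setting 30000 fibers directly against 12000, 8 members were lower and 8 higher, against 27.1% of tested genes lower and 28.3% higher, 55.4% in either direction. With library totals alone as the scaling 12 were lower and 7 higher, while the share of all called genes that were higher was 32.9%, against 51.1% with TMM. All libraries at 30000 fibers lay below all at 12000 in 8 members and above them in 8, as in 25.6% and 26.7% of tested genes. The median log2 difference was 0.013 over members and -0.012 over all genes. Acat2 (1.56 ± 0.19) and Fdps (1.83 ± 0.11) had the largest rises, with edgeR adjusted p = 5.96e-06 and 4.53e-11, followed by Nsdhl, Msmo1, Insig2, Idi1, Fdft1 and Sqle. Nsdhl had a log2 difference of 0.74 ± 0.11 (edgeR adjusted p = 1.74e-05). Sqle, at 0.24 ± 0.10 (edgeR adjusted p = 0.0485), lost its call with DESeq2 (adjusted p = 0.0614), without control mouse 3 or 4, without mouse 1, 3 or 4 at 12000 fibers and without mouse 1 or 2 at 30000 (edgeR adjusted p = 0.0539 to 0.289), its value being 0.12 without mouse 2 at 30000 and 0.029 (edgeR adjusted p = 0.812) with library totals alone as the scaling. The Sqle call was also lost with upper-quartile factors, summed transcripts and protein-coding transcripts (edgeR adjusted p = 0.0737, 0.104 and 0.0515). Msmo1, at 0.62 ± 0.078 (edgeR adjusted p = 1.35e-06), lost its call with summed transcripts (0.16; edgeR adjusted p = 0.0999). Insig1, at -0.47 ± 0.086 (edgeR adjusted p = 0.000111), was the 1 gene among the 8 lower ones that was not already lower at 12000 fibers.

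Transcripts of 1 gene differed more in their change at 30000 fibers than at 12000. Overlapping transcripts can hold the same reads, so the rows of a gene are not separate measurements. Sums of transcripts can count such reads more than once. The Mbtps2 transcripts of 3891 and 3890 bases had the same mean count (39.7) and the same log2 ratios (0.44 at 12000 and -0.51 at 30000). Of 167 member transcripts with an annotated end, 127 (76.0%) were below the control mean at 12000 fibers and 152 (91.0%) at 30000. Of the 67106 transcripts of tested genes with more than 1 transcript, 49.0% were below it at 12000 fibers and 70.3% at 30000. The highest minus the lowest log2 ratio among the transcripts of a gene had a median of 0.21 at 12000 fibers and 1.43 at 30000 over the members, against 0.22 and 1.23 over the 11417 tested genes with more than 1 transcript. Transcripts ending within 500 bases of the gene's most downstream listed end had a median log2 ratio at 30000 fibers of -0.33, and those ending farther upstream -1.05. Over all tested genes the corresponding medians were -0.088 and -0.69. The transcripts with the downstream end had the higher median ratio in 24 of the 26 members with both kinds (92.3%) and in 83.4% of the 10041 tested genes with both.

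In Fdps and Acat2, as in several other members, the transcripts of 1 gene went opposite ways at 30000 fibers. For Insig2, 13 of 14 transcripts were below controls and 1, the counted one, was above them (0.41). Of 8 Mbtps2 transcripts, 6 were below controls and 2, the counted one among them, above. Fdft1, Msmo1, Nsdhl, Hsd17b7, Ggps1 and Scap also had transcripts on both sides of the controls. Of 4 Fdps transcripts, 2 had log2 ratios of 1.24 and 1.25, and the other 2 had -1.10 and -1.06. The 2 that rose had mean counts of 181.6 and 181.1, so they may hold the same reads. Acat2 had 0.89 and 0.88 in 2 transcripts and -1.11 and -0.65 in the other 2. With all transcripts summed, Fdps changed by 0.95 (edgeR adjusted p = 9.71e-07) and Acat2 by 0.72 (edgeR adjusted p = 0.00302), both still higher. Msmo1, not called by its representative transcript, was lower at 30000 fibers when summed (-0.46; edgeR adjusted p = 9.13e-05). At 12000 fibers all 4 transcripts of Fdps and all 4 of Acat2 were below controls.

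**Figure D4:**
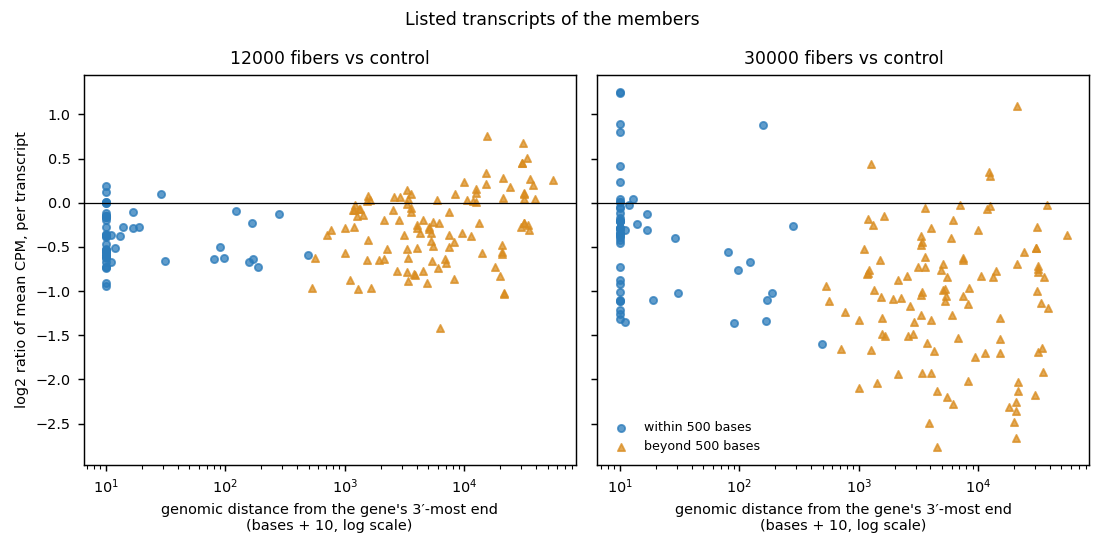
Each point is 1 listed transcript of a member. The vertical axis is the log2 ratio of its mean CPM at 12000 (left) or 30000 fibers (right) over control, with 0.1 CPM added, and the horizontal axis, on a log scale, is the distance of its end from the most downstream listed end of the gene. At 30000 fibers the transcripts beyond 500 bases sit lower, with a median of -1.05 against -0.33 within 500 bases.

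Of other sterol genes, the targets of LXR, the nuclear receptor that oxysterols switch on, included 5 of 7 tested that were higher and 1 that was lower at 12000 fibers, where 18.7% of all tested genes were higher and 19.3% lower. The cholesterol exporter Abca1 averaged 391 ± 21.8 CPM at 12000 fibers and 54.2 ± 11.3 CPM in controls (SD, n = 4 each), a log2 fold change of 2.85 ± 0.15 (edgeR adjusted p = 3.05e-08). For the exporter Abcg1 it was 3.39 ± 0.25 (edgeR adjusted p = 2e-07) and for the phospholipid remodeling enzyme Lpcat3 0.63 ± 0.085 (edgeR adjusted p = 9.5e-06). At 30000 fibers 5 of the 7 were higher and 1 lower, against 32.2% and 33.4% of tested genes, with Abca1 at 1.64 ± 0.15 (edgeR adjusted p = 4.69e-07). The LXR receptor genes themselves, Nr1h2 and Nr1h3, were not called at 12000 fibers, and at 30000 Nr1h2 was lower at -0.18 ± 0.076 (edgeR adjusted p = 0.0403).

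Of 16 genes of SREBP1 and fatty acid synthesis, 6 were higher and 4 lower at 12000 fibers, against the 18.7% and 19.3% of all tested genes, and 4 were higher and 7 lower at 30000, against 32.2% and 33.4%. The desaturase Scd1 rose by 1.83 ± 0.18 on the log2 scale (edgeR adjusted p = 4.2e-06), and Srebf1, which encodes SREBP1, by 0.52 ± 0.079 (edgeR adjusted p = 3.32e-05), while the elongase Elovl6 fell, at -1.14 ± 0.13 (edgeR adjusted p = 4.57e-06). Srebf1 and Srebf2 thus had opposite signs at 12000 fibers, and both were lower at 30000, where Srebf1 changed by -0.38 ± 0.083 (edgeR adjusted p = 0.000417).

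In sterol storage and transport, 3 of 16 genes were higher and 2 lower at 12000 fibers, and 5 higher and 7 lower at 30000. The higher counts are near the shares of all tested genes (18.7% at 12000 fibers and 32.2% at 30000), and all tested genes were lower in 19.3% and 33.4%. Gramd1b, a sterol transporter at membrane contacts, rose by 0.94 ± 0.10 (edgeR adjusted p = 1.04e-06) at 12000 fibers and the cholesteryl ester hydrolase Nceh1 by 0.59 ± 0.10 (edgeR adjusted p = 0.000173). Ch25h, which makes an oxysterol, fell by 2.86 on the log2 scale (edgeR adjusted p = 1.95e-05) at a low level, 0.406 ± 0.190 CPM at 12000 fibers against 2.95 ± 1.29 CPM in controls. Of 7 genes of sterol-regulated protein degradation, 3 were higher and 1 lower at 12000 fibers and 2 higher and 1 lower at 30000, with Erlin2 at -0.28 ± 0.062 (edgeR adjusted p = 0.00144), Rnf145 at 0.27 ± 0.062 (edgeR adjusted p = 0.00187) and Aup1 at 0.21 ± 0.067 (edgeR adjusted p = 0.0163) at the lower number. Of 14 genes that use isoprenoids for prenylation, dolichol or ubiquinone, 1 was higher and 1 lower at 12000 fibers and 4 higher and 3 lower at 30000. The pair called at 12000 were the ubiquinone side-chain synthase subunit Pdss2 (-0.50 ± 0.15; edgeR adjusted p = 0.0142) and the prenyl-protein protease Zmpste24 (0.22 ± 0.076; edgeR adjusted p = 0.0283).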

How the data were processed

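RNA sequencing of the 12 epithelial libraries was used. The deposited values were raw counts per Ensembl transcript, whole numbers not normalized or pooled by the authors. Per the submitters' processing notes, bcl2fastq, FastQC, cutadapt 1.12 and HISAT2 2.1.0 were run with mm10. Counting program, annotation, strand setting and barcode use were not given in the sources used here. Of 71081 transcripts, 70529 were matched to GENCODE M21, and the lowest epithelial total was 60. Entry by entry, the fibroblast columns were unrelated to the epithelial ones (Spearman rho = 0.0467 across entries) and were not used.

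The 14557 genes, each with its highest transcript, were filtered with filterByExpr by group (13759 left), scaled by TMM and tested with edgeR 4.0.16 (R 4.3.3, robust quasi-likelihood, 3 groups, 9 residual degrees of freedom, Benjamini-Hochberg). Standard errors came from the F statistic. CPM used TMM-scaled totals of representative transcripts. The script was tested on simulated data. Near copies are matches of at least 95% identity over 200 bases. All 28 members are named, and of each related list up to 3 called genes by smallest p at 12000 fibers. The members and lists were chosen with earlier results of these data known. Depth limits precision most at 30000 fibers.

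The titles give mouse 1 to 4, so same-numbered libraries share an animal. Deviations of same-mouse libraries from their group means correlated at -0.019 to 0.16 across genes (median 0.10; 12 pairs), and those of different mice at -0.18 to 0.12 (median -0.029; 36 pairs). Alternatives were other scalings, no filter, DESeq2 1.42.0, a mouse block, 2 groups only, each library left out, summed transcripts and protein-coding transcripts, the last chosen after seeing the data.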

Additional observations from a re-analysis of the deposited data

Results flagged for a closer look

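Within each group of 4 libraries, the gap of the highest or lowest library to its nearest neighbour was set against the group's range, and 3 of 84 groups (28 members in 3 groups) exceeded the 95% critical value of Dixon's test, which chance alone exceeds in about 1 in 20 groups. Pmvk at 30000 fibers had 25.05 CPM in mouse 2, against 19.1 to 19.7 CPM in the other 3 mice. Fdft1 in controls had 79.0 CPM in mouse 2, against 68.3 to 70.0 CPM in the others. Ebp at 12000 fibers had 19.6 CPM in mouse 1, against 17.8 to 18.1 CPM in the others.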

How the results depend on the processing

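The tests at 12000 fibers were the steadier ones: over 21 alternatives, 17 to 21 members were lower and 0 or 1 higher (1, Mbtps2, with summed transcripts), and 17 of the 20 calls held in every one, the others being Tm7sf2, Scap and Mbtps1. With the fit limited to the 2 groups, 19 were lower. At 30000 fibers 12 of 14 lower and 2 of 4 higher calls held throughout. With library totals alone the median of all genes at 30000 fibers moved from -0.026 to -0.25 and the share of called genes that were higher from 49.1% to 33.7%, and 2 members were higher, with a median of -0.52 over members, or -0.27 relative to all genes; for 30000 over 12000 that median was -0.19. Summed transcripts gave 5 members higher for 30000 over 12000. Leaving out 1 library gave medians of -0.49 to -0.38 (12000 over control), -0.39 to -0.24 (30000 over control) and -0.052 to 0.081 (30000 over 12000), the middle one at its lowest without mouse 2 at 30000 fibers.

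With the mouse as a replicate block, 21 members were lower at 12000 fibers, 15 lower and 5 higher at 30000, and 9 each way between the fiber numbers. It changed no call beyond those of Pmvk, Hsd17b7, Cyp51 and Ebp.

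Signs turned in members that the main fit did not call in that comparison, and in Insig2. With library totals alone, at 12000 fibers Insig1 was at -0.011 and Erlin1 at -0.0090, at 30000 Fdft1 at -0.18, Msmo1 at -0.21 and Nsdhl at -0.22, and for 30000 over 12000 Ggps1 at -0.11, Hsd17b7 at -0.091, Dhcr7 at -0.16, Scap at -0.061 and Mbtps2 at -0.017. Of these, Msmo1 was called as lower with library totals alone (edgeR adjusted p = 0.0149). Upper-quartile factors put Msmo1 at -0.0044 and Nsdhl at -0.010 at 30000 fibers. Protein-coding transcripts gave Nsdhl -0.0026 at 30000 fibers and Mvk 0.0066 for 30000 over 12000. Summed transcripts gave Msmo1 -0.46, Scap 0.088 and Insig2 -0.30 at 30000 fibers. For 30000 over 12000 they gave Pmvk 0.039, Sc5d 0.0018, Dhcr7 -0.068 and Insig2 -0.27. Insig2 was called in both, and Msmo1 at 30000 fibers. The sum draws on other transcripts; the cause was not tested. Leaving out 1 library, values spanned 0 at 12000 fibers for Mvk (-0.20 to 0.0080), Insig1 (-0.055 to 0.050) and Erlin1 (-0.0097 to 0.028), at 30000 for Ggps1 (-0.18 to 0.023), Fdft1 (-0.027 to 0.096), Msmo1 (-0.067 to 0.049) and Nsdhl (-0.089 to 0.078), and for 30000 over 12000 for Mvk (-0.30 to 0.079), Pmvk (-0.12 to 0.082), Ggps1 (-0.018 to 0.18), Sc5d (-0.13 to 0.045) and Dhcr7 (-0.017 to 0.10).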
